A study of Homo sapiens with 9 samples.

Results

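The 10 genes described here encode parts and outputs of the NF-kB pathway: the subunits NFKB1, NFKB2 and RELB, the inhibitors NFKBIA and TNFAIP3, the prostaglandin synthase PTGS2, and the secreted proteins CCL2, IL12A, LIF and IL11. They were taken by symbol from the 23610 entries of the expression table, and all 10 were found. The genes were picked with earlier differences between the groups of these libraries known, so their levels and differences are given as a description, without p-values. In that description, 4 of the 10, IL12A, TNFAIP3, PTGS2 and CCL2, were lower with an sgRNA against HAND1, where 2.93% of all genes tested were lower and 6.60% were called in either direction, while the 3 subunit genes and NFKBIA were not called as different. PTGS2 was also called lower with an sgRNA against ETV1, where 0.0617% of all genes tested were lower. That call was lost under 7 of 19 alternative fits.

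NF-kB factors are dimers that wait in the cytoplasm, held by inhibitors such as IkB alpha (NFKBIA), until receptors for tumour necrosis factor, interleukin-1 or microbial products activate the IKK kinases. The freed dimers enter the nucleus and switch on genes for cytokines and chemokines, PTGS2, and their own brakes, NFKBIA and TNFAIP3 (the ubiquitin-editing enzyme A20). In gastrointestinal stromal tumours (GIST), which arise from the lineage of the interstitial cells of Cajal and are mostly driven by mutant KIT, KIT signalling through ERK stabilises the ETV1 protein, which drives the lineage programme together with other factors.

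The cells were GIST-T1, a human GIST cell line with mutant KIT, sequenced as polyA RNA in 9 libraries. An sgRNA was present in every group: against Luciferase, a sequence that human cells lack, in the 3 control libraries, against ETV1 (an ETS transcription factor of GIST) in 3, and against HAND1 (a basic helix-loop-helix transcription factor) in 3. The labels give no time point, no sgRNA sequence and no Cas9 form, and do not say whether the cells were a clone or whether libraries of a group were separate cultures, so p-values cover the scatter among the libraries at hand, and that may be technical. Values are FPKM, in which fragment numbers are divided by transcript length and library size, so levels can be set side by side between genes; read depth is known only as a ratio between libraries, from 0.637 to 1 of the deepest.

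The targeted genes were lower with their own sgRNA. ETV1 was at 37.4 to 42.2 FPKM in the control libraries and 10.9 to 12.03 with ETV1 sgRNA, and HAND1 was at 114 to 116 FPKM in the control libraries and 36.5 to 40.8 with HAND1 sgRNA. With ETV1 sgRNA, HAND1 lay at 130 to 134 FPKM, above every control library, a log2 difference of 0.21 that limma did not call (adjusted p = 0.244). KIT (156 to 218 FPKM) and ANO1 (159 to 174 FPKM), which mark GIST, were high in all 9 libraries. Of 12 markers of macrophages and other blood cells, which are common sources of these cytokines, 11 had a mean under 1 FPKM and ITGAM, AIF1 and MS4A1 were listed at 0 throughout. The exception was CD68 at 3.52 to 6.68 FPKM, and the summed level of the 12 was 4.93 to 6.24 FPKM in the control libraries, 7.52 to 8.27 under ETV1 sgRNA and 5.56 to 8.49 under HAND1 sgRNA; its part in the results was not tested. Luciferase sgRNA replicate 3 stood apart, with ribosomal protein genes at 12.2% of its summed FPKM against 8.51% to 9.63% in the other 8 libraries. Without it the 4 falls with HAND1 sgRNA kept their calls, at log2 differences of -1.51 for IL12A, -0.94 for TNFAIP3, -0.77 for PTGS2 and -0.54 for CCL2.

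In the control cells the members spanned a wide range of levels. CCL2, a chemokine that draws monocytes, was highest at 25.9 ± 2.596 FPKM (SD, n = 3). PTGS2, the inducible cyclooxygenase, followed at 19.8 ± 0.693 FPKM and NFKBIA at 19.5 ± 2.29 FPKM. These 2 overlapped between control libraries and had no order. NFKB2 and NFKB1, which encode precursor proteins that are processed into DNA-binding subunits, were at 12.3 ± 0.938 and 10.6 ± 0.227 FPKM. TNFAIP3 (6.44 ± 0.255 FPKM) and IL12A, the smaller subunit of interleukin-12 (5.52 ± 1.05 FPKM), again overlapped. LIF, a cytokine of the interleukin-6 family, was at 3.01 ± 0.305 FPKM and RELB, the partner of the NFKB2 product, at 2.29 ± 0.191 FPKM. IL11, another cytokine of the interleukin-6 family, was listed at 0 in 6 of 9 libraries and reached 0.0995 FPKM at most, so it was not tested and no difference is given for it.

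Promoters of the members were read from RefSeq sequences (GRCh38.p14) and searched on both strands, over the 250 bases before the annotated start, for the kB motif that NF-kB dimers bind. Sequences were found for 7 of the 10 members, and not for CCL2, RELB and LIF. Only exact matches to the consensus letters of the motif were counted, so a site that departs from them by a letter was missed. The last 120 bases before the start are printed below, 5′ to 3′ along the gene. They are shown for the 4 members with a kB match, with the match in capitals, and for PTGS2, which had no exact match. The window of PTGS2 does hold a near match, gggactaccc, which departs from the motif by a letter and lies before the printed bases. The set holds 3 members that fell with HAND1 sgRNA and 2, NFKBIA and NFKB1, that were not called.
TNFAIP3, chr6:137867139-137867258, plus strand: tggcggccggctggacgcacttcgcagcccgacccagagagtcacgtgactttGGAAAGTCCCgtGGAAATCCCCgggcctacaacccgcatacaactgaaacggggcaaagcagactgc
IL12A, chr3:159988715-159988834, plus strand: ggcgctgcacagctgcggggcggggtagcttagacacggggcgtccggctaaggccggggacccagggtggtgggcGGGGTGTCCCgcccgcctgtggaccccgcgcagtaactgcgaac
NFKBIA, chr14:35404750-35404869, minus strand: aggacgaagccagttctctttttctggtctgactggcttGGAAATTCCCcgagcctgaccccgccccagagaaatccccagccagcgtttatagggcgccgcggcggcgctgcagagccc
NFKB1, chr4:102501239-102501358, plus strand: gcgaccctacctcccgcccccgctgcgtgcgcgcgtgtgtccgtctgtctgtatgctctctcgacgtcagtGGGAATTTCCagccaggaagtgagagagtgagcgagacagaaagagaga
PTGS2, chr1:186680424-186680543, minus strand: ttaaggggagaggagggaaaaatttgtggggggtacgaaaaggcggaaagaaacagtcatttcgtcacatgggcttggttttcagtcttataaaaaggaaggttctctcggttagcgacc
TNFAIP3 held a pair of matches, from 67 to 58 and from 55 to 46 bases before the start, and the matches of NFKBIA, NFKB1 and IL12A began 81, 49 and 44 bases before it. The kB motif was thus present in 4 of 7 member promoters, against 5.21% of the 35116 promoter windows of the same length. The members were picked as parts and outputs of the NF-kB pathway, so that share is no independent evidence. Of the genes with a match, TNFAIP3 and IL12A fell with HAND1 sgRNA and NFKBIA and NFKB1 were not called. A link between motif and call was not tested. The E-box CANNTG, the core that basic helix-loop-helix factors bind, was found in 3 of 7 (TNFAIP3, PTGS2 and IL12A) against 61.8% of all windows. The AP-1 motif TGANTCA was found in 1 (IL11, 6.57% of all windows) and the ETS motif CCGGAANT in 0 (5.14%). No kB match overlapped another motif. Exact matches alone were counted for these motifs too. The printed NFKB1 bases, for example, hold caggaagt, which departs from the ETS motif by a letter. All the counts are of matches of letters in a short window and describe no binding.

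**Figure D1:**
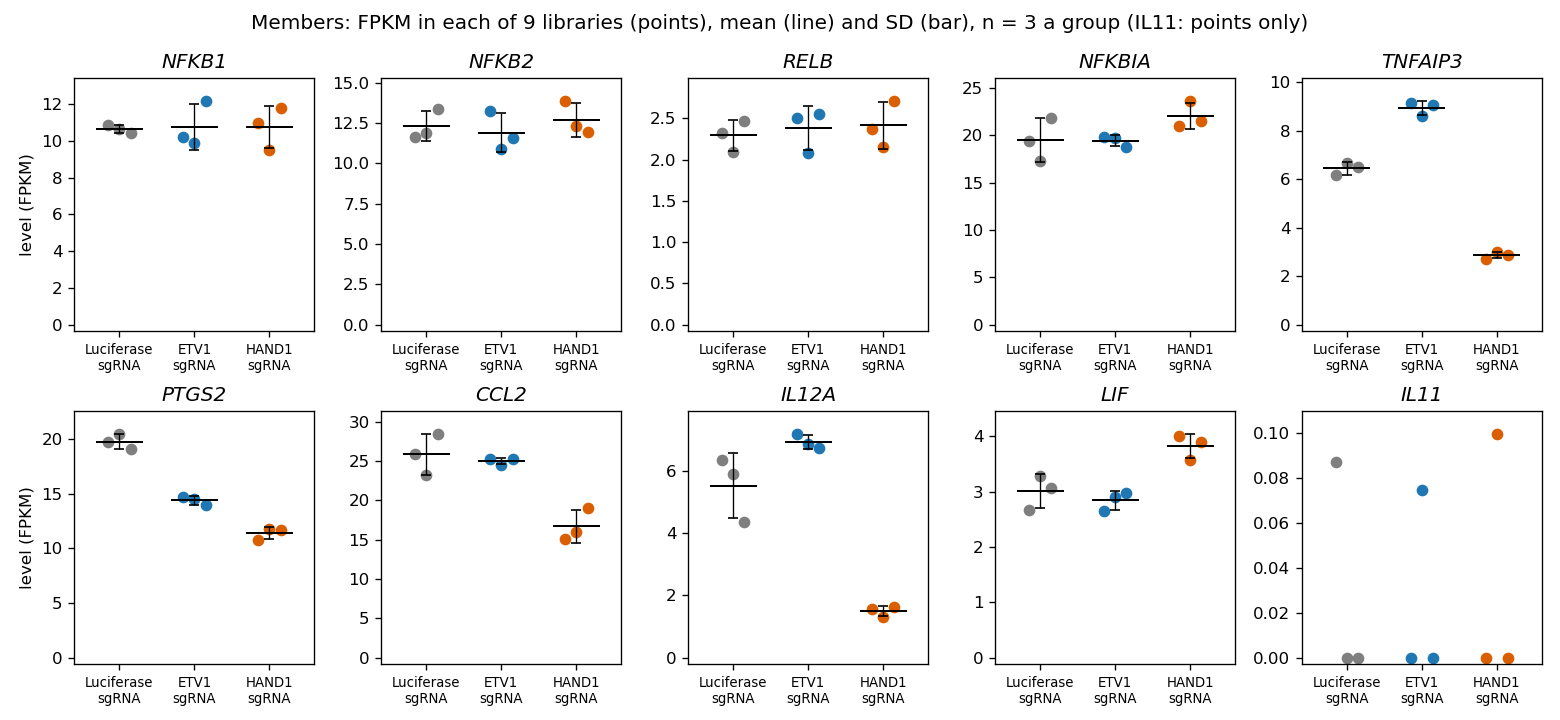
FPKM of each of the 10 members (vertical axis, linear) in the 9 libraries, grouped by sgRNA on the horizontal axis. Points are libraries, lines are means and bars are SD (n = 3), except that IL11 has points only. TNFAIP3 falls into 3 separate groups, with HAND1 sgRNA lowest and ETV1 sgRNA highest, PTGS2 is lower with both sgRNAs, CCL2 and IL12A are lowest with HAND1 sgRNA, and NFKB1, NFKB2 and RELB overlap across the groups.

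The comparison of HAND1 sgRNA with Luciferase sgRNA asks which transcripts differed where HAND1 was targeted. Loss of HAND1 and other effects of the sgRNA or the cultures cannot be told apart in it. In limma, fitted to log2(FPKM + 1) across the 11348 genes whose mean reached 1 FPKM, 4 of the 9 members tested were lower at an adjusted p under 0.05 and 0 were higher; over all genes tested 2.93% were lower, 3.67% were higher and 6.60% were called in either direction. The median of the 9 members was 0.01 on the log2 scale, against -0.01 for all genes. In bulk RNA, fewer cells that express a gene and less RNA per cell cannot be told apart.

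IL12A showed the largest difference among the members. It was at 6.34, 5.89 and 4.34 FPKM in the control libraries and at 1.55, 1.32 and 1.63 FPKM with HAND1 sgRNA. The highest of the HAND1 sgRNA libraries lay well under the lowest control library, which was replicate 3. The means differed 3.69-fold, and the log2 difference was -1.37 (SE 0.12). IL12A overlaps an annotated antisense gene, IL12A-AS1, and the libraries carry no strand, so reads of the 2 cannot be separated. Of the partners of its product, named after their values were seen, IL12B was listed at 0 in all 9 libraries and EBI3 had a mean of 0.176 FPKM.

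TNFAIP3, which removes activating ubiquitin chains and so damps NF-kB signalling, was at 6.16, 6.65 and 6.51 FPKM in the control libraries. It was at 2.72, 2.99 and 2.89 FPKM with HAND1 sgRNA. The groups were far apart and each was tight: the means differed 2.25-fold and the log2 difference was -0.94 (SE 0.07). An antisense gene, AL357060.1, overlaps TNFAIP3 in the annotation. NFKBIA, the other inhibitor among the members, lay at 17.3 to 21.8 FPKM in the control libraries and at 21.0 to 23.7 FPKM with HAND1 sgRNA. These ranges overlapped, and its log2 difference of 0.17 (95% interval -0.01 to 0.36) was not called, although it was with library weights (0.26).

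PTGS2 makes prostaglandin H, from which the other prostaglandins are formed. Its level was 19.7, 20.5 and 19.1 FPKM in the control libraries and 10.8, 11.7 and 11.6 FPKM with HAND1 sgRNA. No library of one group reached the other, the means differed 1.74-fold, and the log2 difference was -0.75 (SE 0.06). CCL2 was at 26.0, 23.2 and 28.4 FPKM in the control libraries and 15.1, 16.0 and 19.0 FPKM with HAND1 sgRNA. Both groups were wider than for PTGS2 but did not overlap, with means 1.55-fold apart and a log2 difference of -0.61 (SE 0.09).

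LIF differed the other way and was not called. Its values were 2.68, 3.28 and 3.06 FPKM in the control libraries and 4.002, 3.58 and 3.90 FPKM with HAND1 sgRNA. Every HAND1 sgRNA library lay above every control library, at a log2 difference of 0.27 (95% interval 0.06 to 0.48), and the antisense gene LIF-AS1 overlaps LIF. With LIF included, 5 of the 9 members tested had groups that did not overlap, against 25.7% of all genes tested.

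The subunit genes were level across these groups. NFKB1 was at 10.4 to 10.9 FPKM in the control libraries and 9.51 to 11.8 with HAND1 sgRNA, NFKB2 at 11.7 to 13.4 and 11.9 to 13.9, and RELB at 2.09 to 2.47 and 2.16 to 2.71. All 3 overlapped between the groups. Their log2 differences were 0.01 (95% interval -0.20 to 0.22), 0.04 (-0.16 to 0.24) and 0.05 (-0.19 to 0.29). Shifts within those intervals are compatible with the values, and the intervals are not limits of what a call could detect.

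The comparison of ETV1 sgRNA with Luciferase sgRNA asks the same where ETV1 was targeted, with the same limit, and it shares its control libraries with the comparison above. Limma called 1 of the 9 members tested, PTGS2, as lower and 0 as higher, against 0.0617% of all genes tested called lower, 0.141% called higher and 0.203% called in either direction. PTGS2 was at 14.7, 14.6 and 13.96 FPKM with ETV1 sgRNA, under all 3 control values of 19.1 to 20.5 FPKM. The means differed 1.37-fold and the log2 difference was -0.43 (SE 0.06). Leaving out any 1 of the ETV1 sgRNA libraries, or Luciferase sgRNA replicate 1 or 2, ended the call, at log2 differences of -0.44 to -0.41. Fitting those 2 groups alone ended it too.

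TNFAIP3 lay on the other side of the control with ETV1 sgRNA. It was at 9.16, 8.60 and 9.04 FPKM, above all 3 control values of 6.16 to 6.65 FPKM. Its log2 difference of 0.42 (95% interval 0.26 to 0.58) did not pass the threshold, although it did with a pseudocount of 5, with library weights and with no intensity trend. IL12A was at 7.19, 6.87 and 6.72 FPKM, each above the highest control value of 6.34, and was not called (0.29, 95% interval 0.03 to 0.56; 0.16 without Luciferase sgRNA replicate 3). Together with PTGS2, 3 of the 9 members had groups that did not overlap, against 12.9% of all genes tested.

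CCL2 stayed within the control range with ETV1 sgRNA. It was at 24.5 to 25.3 FPKM against 23.2 to 28.4 FPKM, a log2 difference of -0.04 (95% interval -0.25 to 0.16). LIF (2.65 to 2.98 FPKM), NFKBIA (18.8 to 19.8), NFKB1 (9.91 to 12.2), NFKB2 (10.9 to 13.2) and RELB (2.08 to 2.56) also overlapped the control libraries, and none was called. Their log2 differences ranged from -0.06 for LIF to 0.04 for RELB.

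Set directly against ETV1 sgRNA, HAND1 sgRNA gave the same 4 members as lower and 0 as higher, against 2.04% of all genes tested called lower, 2.01% called higher and 4.05% called in either direction. IL12A differed most (log2 -1.67, SE 0.12), with means of 6.93 ± 0.238 FPKM for ETV1 sgRNA and 1.498 ± 0.161 FPKM for HAND1 sgRNA (SD, n = 3). TNFAIP3 followed at -1.36 (SE 0.07), from 8.935 ± 0.293 to 2.87 ± 0.135 FPKM, a 3.12-fold difference of the means. CCL2 was lower by a log2 difference of -0.56 (SE 0.09) and PTGS2 by one of -0.32 (SE 0.06); the call of PTGS2 was lost without ETV1 sgRNA replicate 1 (-0.30) or 2 (-0.31) or HAND1 sgRNA replicate 1 (-0.28). The difference for LIF, 0.33 (95% interval 0.12 to 0.54), and that for NFKBIA, 0.17 (-0.01 to 0.36), were not called, although neither gene's libraries overlapped between the 2 sgRNAs and LIF was called with no intensity trend. In all, 6 of the 9 members did not overlap, against 22.4% of all genes tested.

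**Figure D2:**
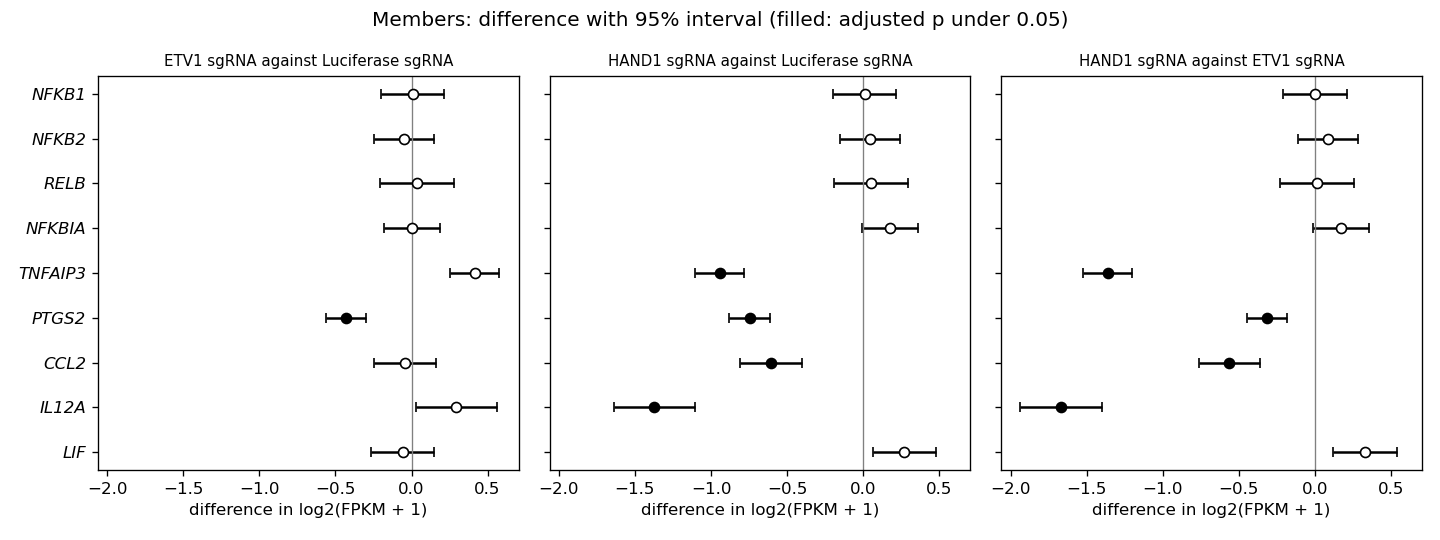
Differences in log2(FPKM + 1) (horizontal axis) with 95% intervals for the 9 members tested, in limma, in each of the 3 comparisons; filled points had an adjusted p under 0.05. TNFAIP3 lies right of 0 with ETV1 sgRNA (0.42, open) and left of it with HAND1 sgRNA (-0.94, filled), while the subunit genes lie near 0 in all 3 panels.

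The genes that came nearest to the pattern of a member over the 9 libraries were sought among 11347 others by Pearson correlation of log2(FPKM + 1), which follows the 3 groups and gives high values for many genes. For PTGS2 they were SPRY4, a feedback inhibitor of receptor signalling (r = 0.994), MYCN, a MYC family transcription factor (r = 0.986), and RASL11A (r = 0.982). SPRY4 averaged 165 ± 5.07 FPKM in the control libraries, 124 ± 3.27 under ETV1 sgRNA and 97.9 ± 1.02 under HAND1 sgRNA (SD, n = 3), the same order of groups as PTGS2. For IL12A they were PDE2A, a phosphodiesterase of cyclic nucleotides (r = 0.992), SSFA2 (r = 0.990) and NPR3, the clearance receptor of natriuretic peptides (r = 0.989). For CCL2 they were PLS1, an actin bundling protein (r = 0.982), UBE2L6, the conjugating enzyme of ISG15 (r = 0.982), and FUT8, a fucosyltransferase (r = 0.982).

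A further 165 genes of the same pathways, in 6 lists, were examined beside the members, and 88 of them had a mean of at least 1 FPKM and were tested. The lists, like the members, were drawn up with earlier results known, so the p-values of their genes, although adjusted over all genes tested, are no independent evidence. Of all 23610 genes, 12262 had a mean under 1 FPKM. This held for 36 of 46 chemokines and other inflammatory outputs and for 12 of 13 interleukin-12 family and CCL2 receptor genes. It held for 17 of 31 genes of prostaglandin synthesis, transport and receptors, a share near that of all genes. Among the listed genes under 1 FPKM, and chosen after their values were seen, IL1B had a mean of 0.0254 FPKM. CCR2, the receptor of CCL2, had a mean of 0.0807 FPKM, and TNF was listed at 0 in all 9 libraries. IL6, in the list of its own family and likewise named afterwards, was also under the minimum. It was at 0.101, 0 and 0.127 FPKM in the control libraries, 0.247, 0.788 and 0.655 with ETV1 sgRNA, and 0.11, 0.212 and 0 with HAND1 sgRNA, and was not tested. The signalling parts were better represented, with 16 of 17 subunits, inhibitors and kinases and 28 of 36 receptors and adaptors tested. RELA, the main activating subunit, averaged 55.9 ± 0.214 FPKM in the control libraries, 55.98 ± 2.34 under ETV1 sgRNA and 56.2 ± 1.56 under HAND1 sgRNA (SD, n = 3), a log2 difference of 0.01 for HAND1 sgRNA (adjusted p = 0.947 in limma).

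With HAND1 sgRNA against Luciferase sgRNA, 4 of these 88 genes rose and 5 fell in limma (10.2% called, against 6.60% of all genes tested), with a median log2 difference of 0.01 against -0.01 for all genes. AKR1C3, 1 of the 4, was under the minimum in the control group and passed it only through its higher groups; without it, 3 of 87 rose and 5 fell. The receptor CD40, which signals to NF-kB in immune and stromal cells, fell most. It was at 39.8, 45.0 and 43.3 FPKM in the control libraries, 42.8, 42.5 and 45.4 with ETV1 sgRNA, and 19.7, 18.03 and 18.7 with HAND1 sgRNA. The HAND1 sgRNA libraries alone were low, at a log2 difference of -1.14 (SE 0.06, adjusted p = 4.82e-06). TNFRSF1B, a receptor of tumour necrosis factor, fell by 0.39 on the log2 scale (SE 0.08, adjusted p = 0.0180), a call lost without any HAND1 sgRNA library (adjusted p = 0.0662, 0.0624 and 0.0537 for replicates 1, 2 and 3) or without Luciferase sgRNA replicate 3 (0.0539). Its counterpart TNFRSF1A did not pass the test (log2 0.10, adjusted p = 0.381).

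The atypical IkB proteins are nuclear relatives of NFKBIA that bind NF-kB dimers on DNA, and 2 of them were called in opposite directions. NFKBIZ was at 12.7, 11.9 and 10.9 FPKM in the control libraries, 16.2, 14.5 and 15.9 with ETV1 sgRNA, and 8.89, 7.54 and 7.66 with HAND1 sgRNA. Its 3 groups did not overlap and stood in the same order as those of TNFAIP3. NFKBIZ fell with HAND1 sgRNA against the control (-0.51, SE 0.08, adjusted p = 0.00442) and against ETV1 sgRNA (-0.87, adjusted p = 2.31e-04), and the difference of ETV1 sgRNA from the control was not called (0.37, adjusted p = 0.206). BCL3, which binds dimers of the NFKB1 and NFKB2 products, went the other way with HAND1 sgRNA. It rose from 17.1 ± 2.03 to 25.7 ± 1.35 FPKM (SD, n = 3; log2 0.56, SE 0.09, adjusted p = 0.00492), against 16.4 ± 1.57 FPKM with ETV1 sgRNA. The other 14 genes of that list, among them the kinase IKBKB (log2 0.16, adjusted p = 0.160), were not called.

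Among the 10 outputs tested, CXCL12, a chemokine of stromal cells, rose. It was at 9.83, 10.9 and 9.58 FPKM in the control libraries, 8.28, 9.84 and 9.21 with ETV1 sgRNA, and 18.1, 16.8 and 17.3 with HAND1 sgRNA. The HAND1 sgRNA libraries lay above all 6 others, and the log2 difference from the control was 0.73 (SE 0.08, adjusted p = 3.32e-04). CXCL12 and CCL2, both chemokines, thus differed in direction with HAND1 sgRNA. TNFAIP8 fell by 0.25 on the log2 scale (SE 0.05, adjusted p = 0.0180), but not once HAND1 sgRNA replicate 1 (adjusted p = 0.0695) or 2 (0.0662) or Luciferase sgRNA replicate 2 (0.0699) was left out.

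In prostaglandin metabolism, around PTGS2, 3 of the 14 genes tested were called with HAND1 sgRNA against the control, 2 higher and 1 lower. Over all genes tested 6.60% were called, and the median log2 difference of the 14 was -0.03. AKR1C3, 1 of the 2 higher, passed the minimum only through its higher groups, so the count is not read against that share. PTGIS, which converts prostaglandin H to prostacyclin, was at 64.6, 65.7 and 63.9 FPKM in the control libraries, 71.4, 71.5 and 70.9 with ETV1 sgRNA, and 44.0, 46.7 and 46.4 with HAND1 sgRNA. It fell with HAND1 sgRNA by 0.49 on the log2 scale (SE 0.05, adjusted p = 1.34e-04). With ETV1 sgRNA it lay above the control in every library and was not called (0.14, adjusted p = 0.430), whereas PTGS2 was lower there. HPGD, which inactivates prostaglandins, was at 182 to 186 FPKM in the control libraries, 161 to 170 with ETV1 sgRNA and 211 to 237 with HAND1 sgRNA.

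HPGD rose with HAND1 sgRNA (0.26, SE 0.06, adjusted p = 0.0225), but not once HAND1 sgRNA replicate 2 (adjusted p = 0.0742) or 3 (0.0620) or Luciferase sgRNA replicate 1 (0.0630) or 2 (0.0708) was left out, nor in a fit of these 2 groups alone (0.0665). AKR1C3, an aldo-keto reductase that acts on prostaglandins, was at 0.963, 0.562 and 0.375 FPKM in the control libraries and 1.58, 1.72 and 1.72 with HAND1 sgRNA. Since it entered the test through its higher groups, has near-identical paralogues, and was not called once HAND1 sgRNA replicate 3 was left out, its levels are given as a description. The other 11 genes tested in this list were not called, among them AKR1B1 (log2 -0.00, adjusted p = 0.985) and PTGES3 (-0.05, adjusted p = 0.637), its most abundant members. PTGS1, the constitutive cyclooxygenase, named after its values were seen, had a mean of 1.69 FPKM over the 9 libraries, under that of PTGS2 at 15.2 FPKM.

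The receptor parts that LIF and IL11 use were detected: named after their values were seen, IL6ST, the shared signalling chain, had a mean of 36.8 FPKM, IL11RA of 7.07 FPKM and LIFR of 4.81 FPKM. Of the 19 interleukin-6 family genes tested, 0 were called with HAND1 sgRNA against the control in limma, and 5 had an unadjusted p under 0.05. Over all 11348 genes tested 749 were called (6.60%) and 2302 had an unadjusted p under 0.05. JAK1, a kinase of these receptors (log2 -0.01, adjusted p = 0.978), and CNTFR (0.04, adjusted p = 0.704) were its most abundant members. OSMR, the oncostatin M receptor, which overlaps RICTOR on the other strand, was at 4.19, 2.62 and 2.73 FPKM in the control libraries, 2.62, 2.36 and 2.68 with ETV1 sgRNA, and 4.58, 4.79 and 5.55 with HAND1 sgRNA. Control replicate 1 lay near the HAND1 sgRNA libraries, and the difference from the control missed the threshold (0.53, adjusted p = 0.0501). IL27RA, the 1 gene tested in the list with IL12A's relatives, was not called (-0.23, adjusted p = 0.133). With library weights in limma it was called lower (-0.26, adjusted p = 0.0449).

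**Figure D3:**
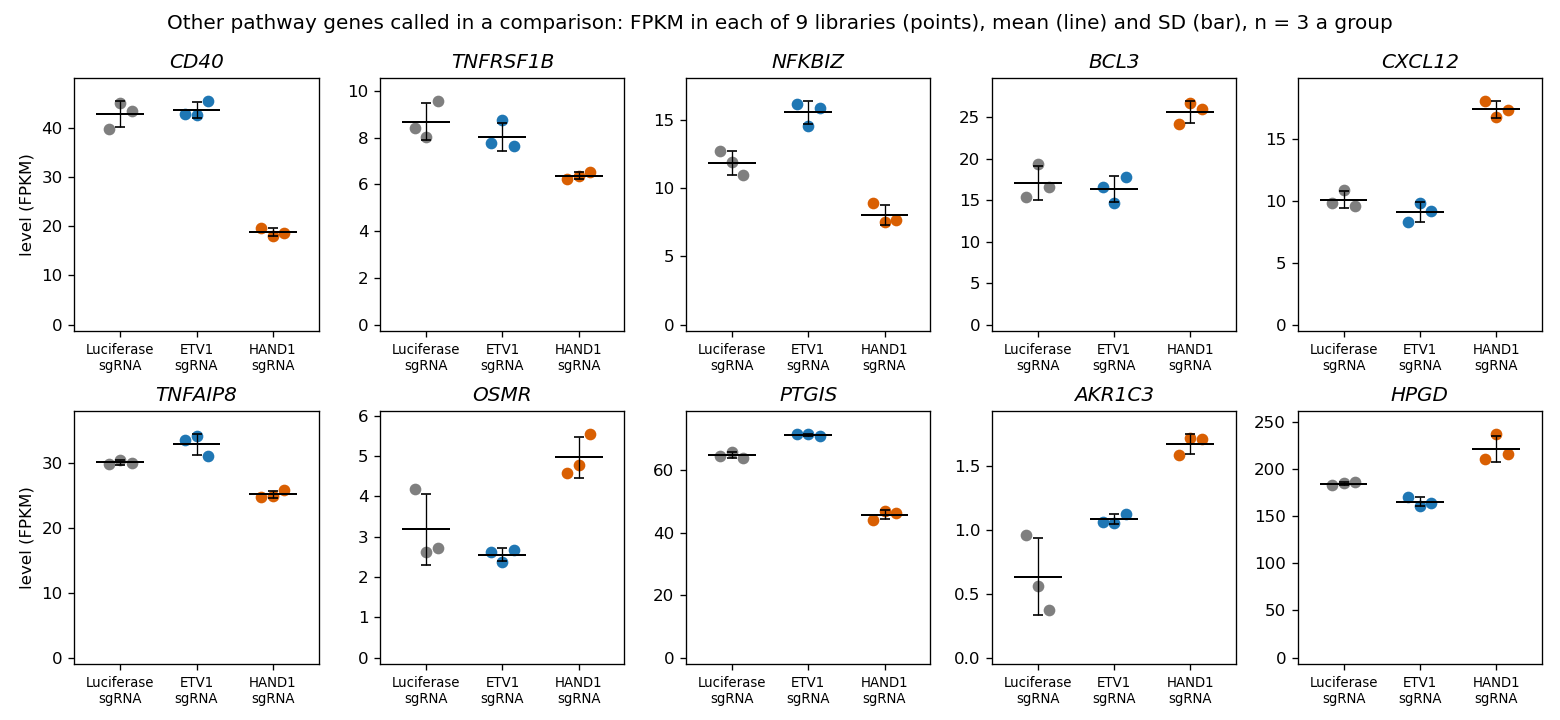
FPKM (vertical axis, linear) of the 10 other pathway genes called in at least 1 comparison, in the 9 libraries by sgRNA; points are libraries, lines are means and bars are SD (n = 3). NFKBIZ is highest with ETV1 sgRNA and lowest with HAND1 sgRNA, and CD40 at 18.03 to 19.7 FPKM with HAND1 sgRNA lies under all other libraries.

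With ETV1 sgRNA against Luciferase sgRNA, limma called 0 of the 88 other pathway genes, 12 had an unadjusted p under 0.05, and the median log2 difference was -0.01, as it was for all genes tested. Over all genes 0.203% were called and 930 had an unadjusted p under 0.05. Among the most abundant genes of the lists, RELA differed by 0.00, IRAK1, a kinase of interleukin-1 signalling, by -0.08, TNFSF10, the death ligand TRAIL, by 0.04, and CNTFR by 0.18 on the log2 scale (adjusted p = 0.997, 0.778, 0.899 and 0.358). The count was 0 under all 19 alternatives too.

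Directly against ETV1 sgRNA, 4 of the 88 genes were higher and 4 lower with HAND1 sgRNA in limma (9.09% called, against 4.05% of all genes tested; median log2 0.02, against -0.00). The largest were again CD40 (-1.17, SE 0.06, adjusted p = 4.25e-06) and CXCL12 (0.87, SE 0.08, adjusted p = 1.53e-04), with NFKBIZ given above. PTGIS fell by 0.63 on the log2 scale (adjusted p = 3.24e-05), TNFAIP8 by 0.37 (adjusted p = 0.00279), and BCL3 (0.62, adjusted p = 0.00416) and HPGD (0.42, adjusted p = 0.00232) rose. OSMR rose by 0.75 (SE 0.14, adjusted p = 0.0133), but not once ETV1 sgRNA replicate 2 (adjusted p = 0.0583) or HAND1 sgRNA replicate 3 (0.0665) was left out. TNFRSF1B was not called here (adjusted p = 0.0877), nor was AKR1C3.

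**Figure D4:**
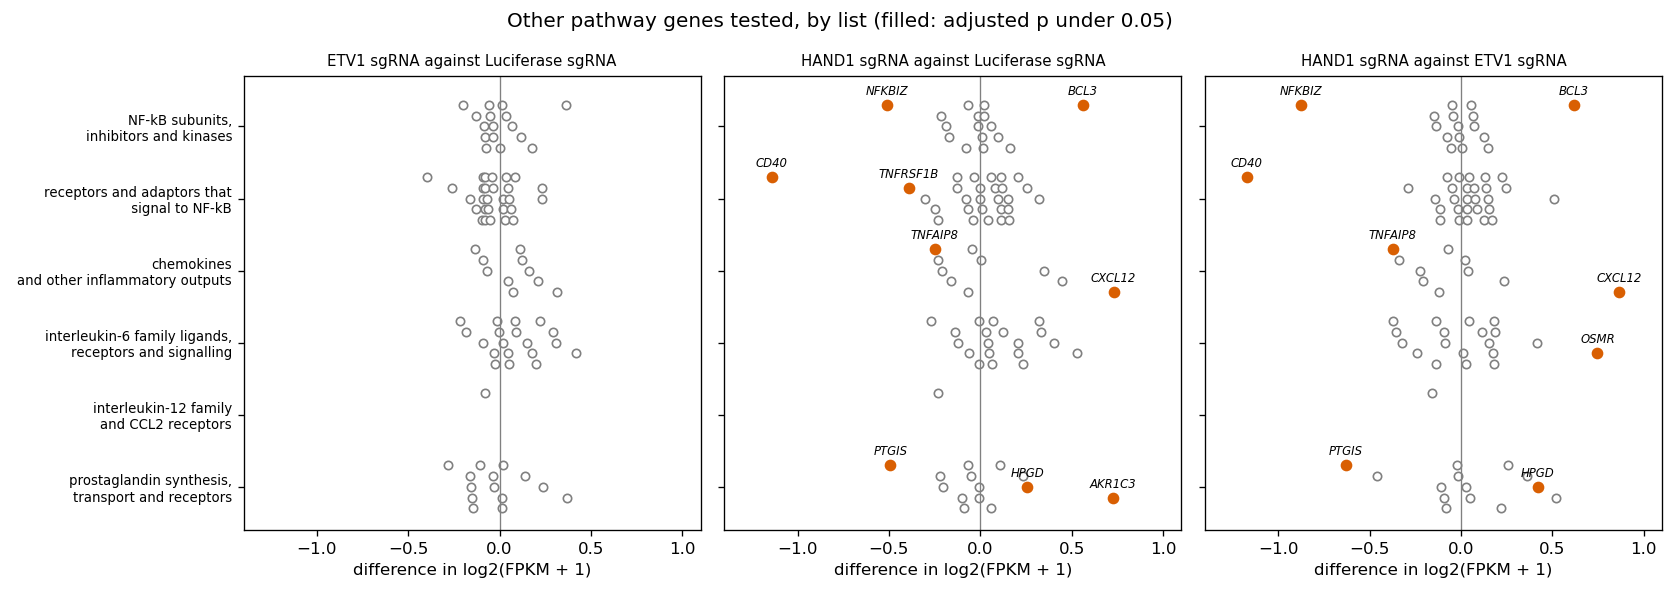
Differences in log2(FPKM + 1) (horizontal axis) of the 88 other pathway genes tested, in rows by list, in the 3 comparisons; filled and named points had an adjusted p under 0.05 in limma. No point is filled with ETV1 sgRNA, and CD40 lies farthest to the left (-1.14 and -1.17) in both panels with HAND1 sgRNA.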

How the data were processed

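The deposited values are FPKM, 1 per gene symbol and library, made by the authors from non-stranded polyA libraries (per the labels' protocols) with STAR and Cufflinks on hg19 (per the submitters' processing notes, without versions). How genes were annotated and libraries scaled is not given in the sources used here. Values below 1e-06 were read as 0. The 11348 of 23610 genes whose mean across the 9 libraries reached 1 FPKM were fitted as log2(FPKM + 1) with limma 3.58.1 in R 4.3.3, with group as the only term, all 9 libraries and an intensity trend (residual degrees of freedom 6, prior 4.15). All tests are two-sided, with Benjamini-Hochberg adjustment over all genes tested and a threshold of 0.05. Fold changes on this scale understate those of low genes; ratios of mean FPKM are given as folds. The fit was tested on simulated data. Relative depth came from the most frequent ratio of low values between libraries.

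The members and the lists were chosen with earlier results of these data known. Genes named besides the members were, per list and comparison, up to 4 called genes with the smallest adjusted p, or the 2 most abundant where none was called, the 3 genes most correlated with IL12A, CCL2 and PTGS2, and those said to be chosen after their values were seen. The alternatives changed the pseudocount (0.1 or 5), the minimum mean (none, or 5 FPKM), the scaling (medians set equal over genes reaching 10 FPKM, or quantile normalization), the trend (none) and the weights (per library); others used only the 2 groups compared, a replicate block, and leaving out each library. Overlapping genes were read from GENCODE on another build, for names only.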

Additional observations from a re-analysis of the deposited data

How the results depend on the processing

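With HAND1 sgRNA against Luciferase sgRNA, and against ETV1 sgRNA, the members' calls of IL12A, TNFAIP3 and CCL2 were kept under every alternative that tested them (a minimum of 5 FPKM left IL12A untested). The call of PTGS2 with HAND1 sgRNA was kept under all 19 alternatives against Luciferase sgRNA and under 16 of 19 against ETV1 sgRNA. With ETV1 sgRNA against Luciferase sgRNA the number of members called, 1 as reported, was 2 with a pseudocount of 5, with no intensity trend and with library weights, where TNFAIP3 joined PTGS2. It was 0 with only the 2 groups compared and 0 with the replicate block, and between 0 and 1 with a library left out. Libraries with the same replicate number deviated from their group means with correlations of -0.146 to 0.138 and the labels do not tie them, so the numbers were not taken as pairs. The replicate block changed 1 other call, HPGD with HAND1 sgRNA (adjusted p = 0.0504 in limma). Other pathway genes called with HAND1 sgRNA against Luciferase sgRNA numbered 15 with library weights, against 9, and 6 to 9 with a library left out; against ETV1 sgRNA they were 7 to 10. Over all genes, library weights gave 1312 calls against 749 for HAND1 sgRNA and 45 against 23 for ETV1 sgRNA, and only the 2 groups gave 14 for ETV1 sgRNA. Leaving out a library gave 433 to 729, 11 to 28 and, between the sgRNAs, 271 to 592 against 460. The causes were not tested. Of 1224 single-gene values under alternatives 0 reversed a called direction, and 39 changed sign where neither value was called.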
